A study of Rattus norvegicus with 58 samples.

Results

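The course of untreated disease was followed between the first and the third day of saline injection in rats with established arthritis. Membership was set by the sample titles alone: the 4 libraries of arthritic rats given saline for 1 day and the 8 libraries of arthritic rats given saline for 3 days, 12 of the 58 libraries of the series. All came from synovial tissue of female DA/OlaHsd rats aged 6 to 8 weeks at induction, injected with 250 µl of pristane. Day 0 was the day after both hind limbs had scored 3 or more. Injections were subcutaneous.

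Other groups served as reference points. Untreated arthritic rats (pristane-induced arthritis, PIA, n = 4) and naive rats (n = 4) set the direction of the disease. Arthritic rats given 5 mg/kg of RTD-1 for 1 day (n = 4) or 3 days (n = 8) covered the same interval under treatment. Arthritic rats given saline for 5 days (n = 8) followed the interval. RTD-1 is rhesus theta-defensin 1, a cyclic peptide of the innate immune system. Every saline and RTD-1 group compared here carried pristane, so no saline effect in rats without arthritis could be read. The labels tie no day 3 library to a day 1 library, and they do not say which libraries came from which animal. A change over time is therefore a difference between groups, and each p-value reflects only the spread among libraries, which may be technical.

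Pristane, a mineral-oil alkane, sets off T cell-dependent inflammation of many joints in susceptible rat strains. In such a joint the thin lining of macrophages and fibroblasts thickens, leukocytes enter from the blood, and the fat and loose connective tissue below the lining lose ground to inflamed tissue. The disease in DA rats starts acutely and then runs a chronic, relapsing course, and a saline arm records that course beside a treatment.

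The 12 libraries held from 1447356 to 5727282 reads assigned to genes. Both sides held 1 library that was sequenced more deeply and stood apart: day 1 replicate 2 (4512069 reads) and day 3 replicate 4 (5727282 reads), where the other 10 libraries had between 1447356 and 2449563. On the first principal component of the 12 libraries, which held 34.3% of the variance, these lay at 96.0 and 81.7, and no other library lay above -0.53. In these libraries 1 gene, ENSRNOG00000047746, chosen after its values were seen, took 8.63% and 10.1% of reads, against at most 0.238% elsewhere. The calls, the 4 genes named by rule and the score values are therefore given with and without this pair. The second component (18.6%) ran with time. Day 1 replicates 1, 3 and 4 lay between -51.5 and -33.3 and 6 of the 8 day 3 libraries lay between 4.58 and 49.7, whereas day 3 replicate 3 lay at -32.8, level with day 1, and replicate 7 at -12.7. The deeper day 1 library lay at 12.2. The files give Ensembl identifiers (16879) without symbols, and 0 could be paired with a symbol. Genes are therefore named by identifier, the pathway and cell marker lists were not analysed here, and the tissue label was not checked against markers. Gene coordinates and the genome build were not given in the sources.

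Few genes passed the test between day 1 and day 3 of saline, and most of those that rose were genes that arthritis had lowered. limma called 23 of 13062 genes (0.176%) at an adjusted p under 0.05, 15 of them higher (0.115%) and 8 lower (0.0612%) on day 3. Of the 15 that rose, 14 had been lower in untreated PIA than in naive tissue (11.4% of all genes tested were called so), none had been higher, and the remaining 1 was not called there. Of the 8 that fell, 4 had been higher in PIA (27.8% of all genes), none had been lower, and 4 were not called. The group means moved by 0.79 to 2.55 log2 units among genes that rose, with a median of 1.20, and by -1.23 to -0.88 among genes that fell, with a median of -1.06. The median over all 13062 genes was 0.00. Values are on the scale of log2(normalized reads + 1), where normalized reads are reads brought to the depth of the median library, and this scale understates the change of low genes. Because tissue was sequenced in bulk, fewer cells of a type and less RNA per cell cannot be told apart.

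The short list of calls sat on top of a wide band of smaller differences. At an unadjusted p under 0.05 there were 1879 genes (14.4%), 1000 higher and 879 lower. All 8 day 3 libraries lay above all 4 day 1 libraries for 80 genes (0.612%) and below them for 148 genes (1.13%), 228 in all (1.75%). Among the 23 called genes the groups were separate for 14, 8 that rose and 6 that fell. The called genes had mean levels from 4.60 to 523.6 normalized reads, and in 15 the log2 values averaged 5 or more. The largest rise, 2.55 in ENSRNOG00000020837, was from a mean of 0.295 to 6.75 normalized reads. All rises larger than 1.39 were in genes whose log2 values averaged under 5. The lowest adjusted p was 0.00217.

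**Figure D1:**
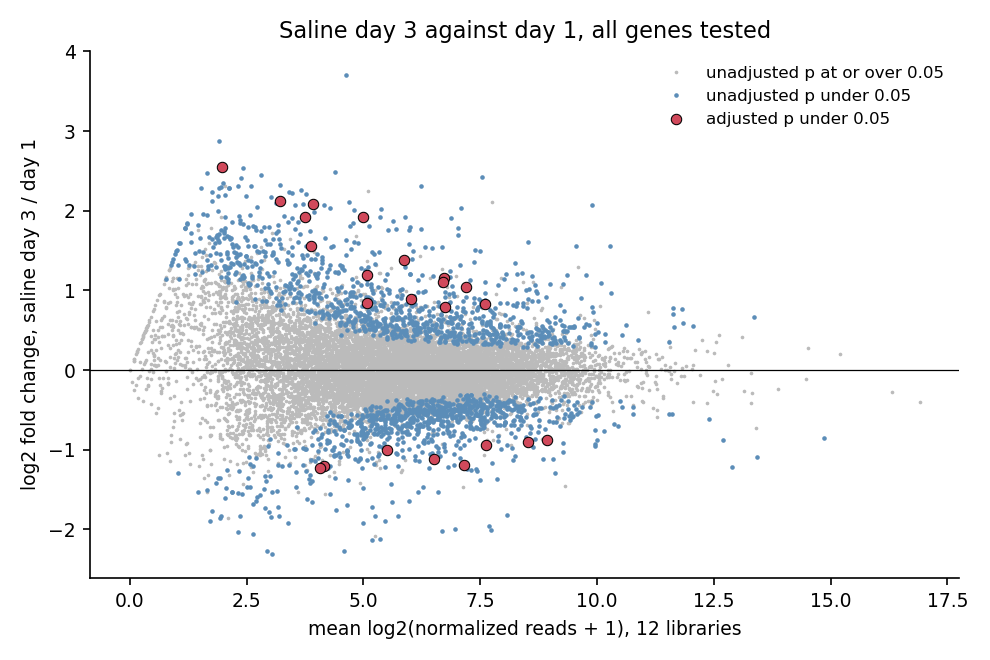
Log2 fold change between saline day 3 and day 1 (vertical axis) against the mean log2(normalized reads + 1) over the 12 libraries (horizontal axis), 1 point per gene tested. The 23 genes with an adjusted p under 0.05 (large red points) lie among 1879 genes with an unadjusted p under 0.05 (blue), at low as well as high levels.

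Leaving out both deeper libraries widened the list without turning it. Over the other 10 libraries limma called 53 genes (0.406%), 32 higher (0.245%) and 21 lower (0.161%). The lists shared 21 genes, which were 91.3% of the 23 and 39.6% of the 53. All 23 genes kept their sign and an unadjusted p under 0.05, and the highest of their adjusted p-values was 0.0832. The 10 libraries are among those on which the 23 genes were selected, so this is not an independent check. Of the 32 higher genes, 24 had been lower in PIA and 0 higher, and of the 21 lower genes, 16 had been higher in PIA and 0 lower. In this fit 11.6% of all genes were called lower and 28.3% higher in PIA. The share of genes called depended on how libraries were scaled to each other. With TMM factors, which set aside genes with extreme ratios when libraries are scaled, 426 genes were called (3.26%), 267 higher (2.04%) and 159 lower (1.22%), and all 23 genes were among them. With these factors and without the deeper libraries 543 were called (4.15%). Of those 267 genes, 190 had been lower in PIA and 5 higher, and of the 159 genes, 120 had been higher and 1 lower, while under these factors 19.7% of all genes were called lower and 19.7% higher in PIA. The count was also decided by single libraries: it was 0 without day 1 replicate 4, 2 without day 1 replicate 1, 6 without day 1 replicate 3, between 3 and 6 without day 3 replicate 2, 5, 6 or 8, and 15 without day 3 replicate 1. It was 105 without day 3 replicate 3 and 152 without day 3 replicate 4. In all 12 of these fits the 23 genes kept their sign and an unadjusted p of at most 0.00437. Each fit reuses all but 1 of the libraries on which these genes were selected. Their kept sign and p were thus largely fixed in advance and lend no separate support.

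ENSRNOG00000008622 showed the largest rise among the called genes whose log2 values averaged 5 or more. It was at 29.3, 30.7, 40.2 and 21.1 normalized reads in day 1 replicates 1 to 4 and at 43.8, 82.1 and 141.9 (lowest, median and highest) on day 3. The groups did not overlap. Day 3 replicate 2 was the highest library and replicates 3 (46.1) and 7 the lowest. The means were 30.3 ± 7.82 (SD, n = 4) and 86.0 ± 37.4 (SD, n = 8), a difference of 1.39 on the log2 scale (SE 0.318, limma adjusted p = 0.0453). Naive tissue held 213.2 ± 48.3 (SD, n = 4) and untreated PIA 44.1 ± 10.2 (SD, n = 4) normalized reads, so the day 3 mean lay between these references. Without the deeper libraries the log2 fold change was 1.47 (limma adjusted p = 0.0466).

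ENSRNOG00000049177 followed at a lower level. Day 1 libraries held 21.5, 19.6, 12.996 and 21.1 normalized reads, and the lowest, median and highest on day 3 were 26.02, 48.2 and 66.3. Every day 3 library was above every day 1 library. Its mean moved from 18.8 ± 3.94 (SD, n = 4) to 45.4 ± 13.7 (SD, n = 8), a log2 difference of 1.20 (SE 0.282, limma adjusted p = 0.0491). In naive tissue it was at 87.3 ± 30.6 and in untreated PIA at 40.3 ± 28.2 (SD, n = 4 each), where 1 library lay within the naive range. The log2 fold change was 1.28 without the deeper libraries (limma adjusted p = 0.0478).

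ENSRNOG00000010549 was the largest fall under the same rule, in a gene not called between PIA and naive. Day 1 replicates 1 to 4 held 319.1, 213.4, 231.6 and 226.0 normalized reads, and day 3 libraries 71.9, 106.9 and 152.0 (lowest, median and highest). All day 3 libraries lay below all day 1 libraries. Means were 247.5 ± 48.3 (SD, n = 4) and 110.9 ± 32.9 (SD, n = 8), a log2 difference of -1.19 (SE 0.279, limma adjusted p = 0.0491), or -1.32 without the deeper libraries (limma adjusted p = 0.0390). The difference between untreated PIA (219.8 ± 94.7, SD, n = 4) and naive tissue (154.9 ± 35.6, SD, n = 4) did not pass the test (limma adjusted p = 0.280). On day 3 the mean lay below the naive mean.

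ENSRNOG00000012946, by contrast, was raised by the disease, from 30.0 ± 11.7 in naive tissue to 127.8 ± 40.8 normalized reads in untreated PIA (SD, n = 4 each). On day 1 its libraries held 140.5, 160.4, 168.9 and 137.1, and on day 3 46.6, 61.6 and 126.9 (lowest, median and highest). The groups were separate, with day 3 replicate 3 the highest and closest to day 1. Its mean fell from 151.7 ± 15.4 (SD, n = 4) to 73.5 ± 27.8 (SD, n = 8), a log2 difference of -1.11 (SE 0.255, limma adjusted p = 0.0453). Without the deeper libraries the value was -1.13 and no longer passed (limma adjusted p = 0.0615).

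**Figure D2:**
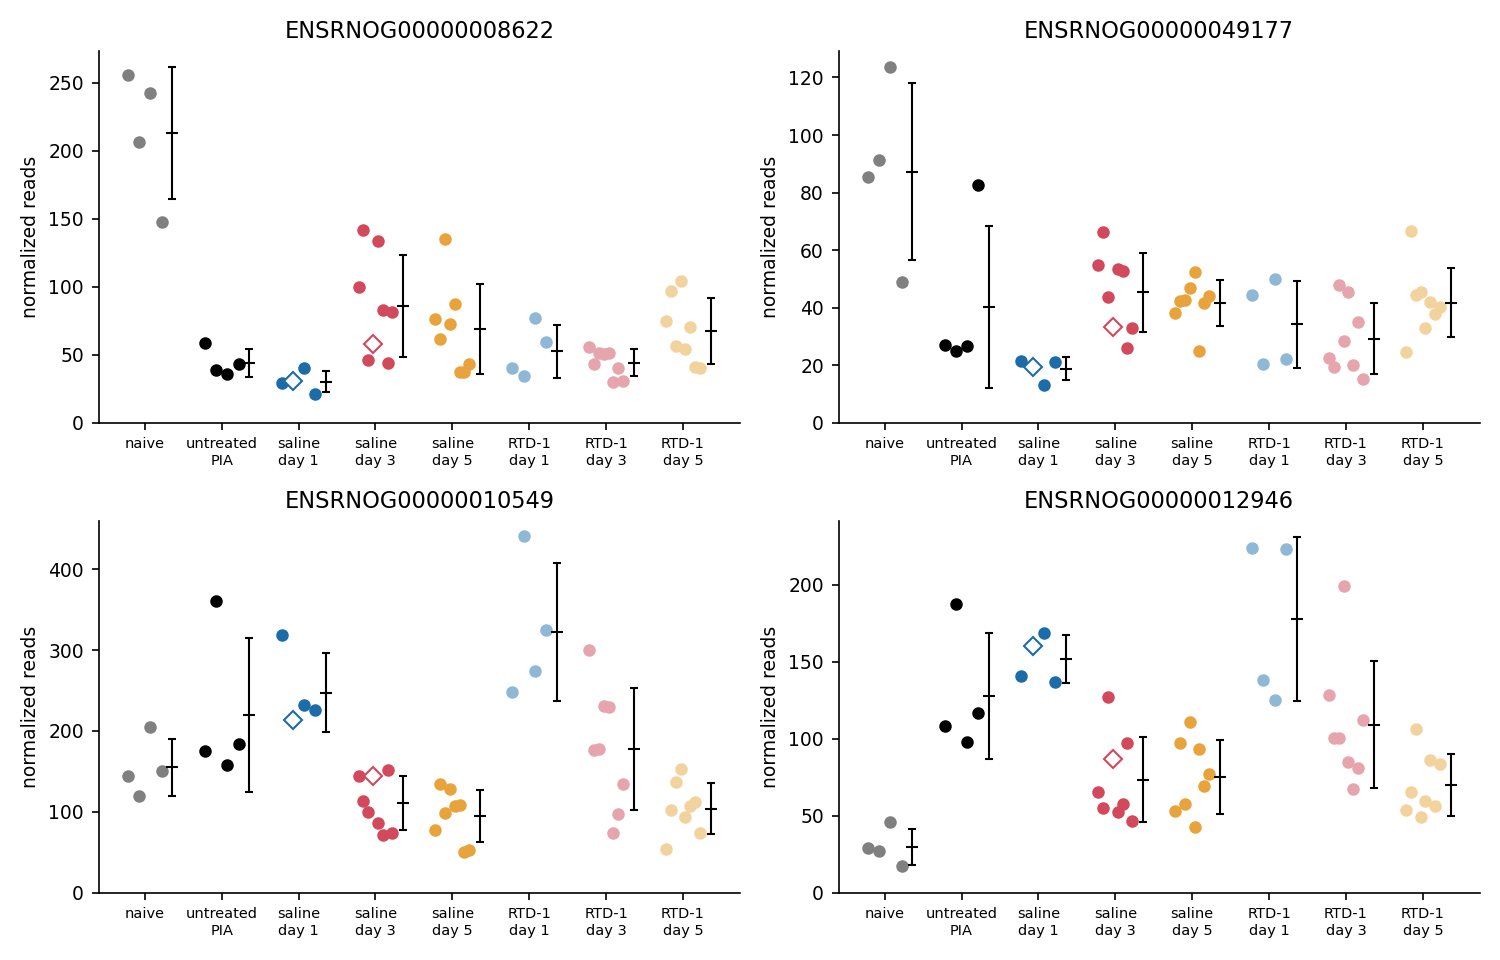
Normalized reads (vertical axes, linear) of the 4 named genes in every library of 8 groups. Black bars give the mean and SD of each group, and open diamonds the 2 deeper libraries of saline days 1 and 3. Saline day 3 libraries (red) lie wholly above day 1 (blue) for ENSRNOG00000008622 and ENSRNOG00000049177, and wholly below for ENSRNOG00000010549 and ENSRNOG00000012946.

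To place each library between healthy and arthritic tissue, an arthritis score was taken over 3219 signature genes. These were the genes that differed 2-fold or more among the 5130 (39.3%) that limma called between untreated PIA and naive tissue. The fold was taken between PIA and naive libraries alone, although all 58 libraries entered the filter and the spread of that test. With the filter, the spread and the test taken from the PIA and naive libraries only, a setting added after seeing the data, the signature held 2849 genes, 2683 of them shared, and the score difference between day 3 and day 1 was -1.001 (exact permutation p = 0.0121). The score is the mean log2 value of the 2035 genes raised in PIA minus the mean of the 1184 genes lost in PIA, with the naive mean set to 0. Untreated PIA scored 4.18 ± 0.368 (SD, n = 4). Day 1 replicates 1 to 4 scored 4.23, 4.12, 4.17 and 4.31, a mean of 4.21 ± 0.0814 (SD, n = 4), which was 100.5% of the PIA mean. Day 3 replicates 1 to 8 scored 2.66, 2.17, 3.97, 3.74, 3.11, 2.95, 3.79 and 3.38, a mean of 3.22 ± 0.618 (SD, n = 8), or 77.0% of the PIA mean.

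All 8 day 3 libraries scored below all 4 day 1 libraries, by 0.99 log2 units in the mean. The difference of -0.99 had a 95% interval of -1.71 to -0.29 and a two-sided exact permutation p of 0.0101, which was 0.0682 after Benjamini-Hochberg adjustment over the 9 score tests run, so it did not pass with the adjustment. The day 1 scores lay within 0.2 log2 units of each other, whereas day 3 libraries ran from 2.17 in replicate 2 to 3.97 in replicate 3, just under the lowest day 1 score. Without the deeper libraries the difference was -1.08 (exact permutation p = 0.025). It was -1.08 for day 3 replicates 1 to 4 (exact permutation p = 0.0286) and -0.90 for day 3 replicates 5 to 8 (exact permutation p = 0.0286), each against all 4 day 1 libraries.

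**Figure D3:**
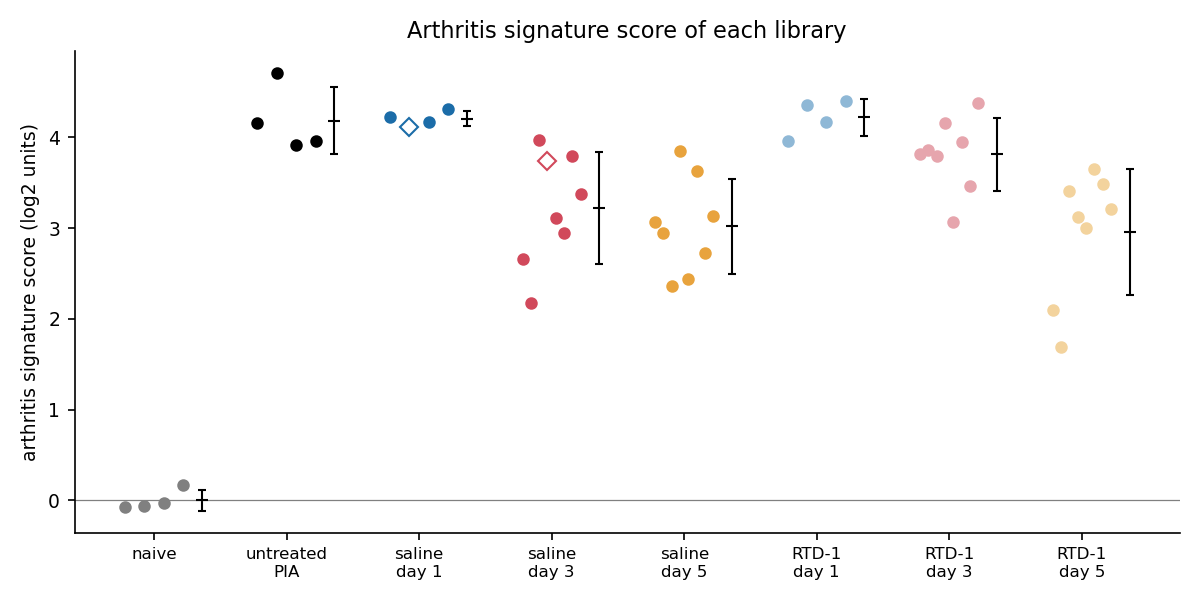
Arthritis score in log2 units (vertical axis, naive mean at 0) of every library in 8 groups. Black bars give the mean and SD of each group, and open diamonds the 2 deeper libraries of saline days 1 and 3. Saline day 1 libraries sit between 4.12 and 4.31, and saline day 3 libraries between 2.17 and 3.97.

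Genes raised in arthritis and genes lost in arthritis each contributed to the lower score. The mean of the arthritis-raised genes, as a log2 difference from naive, was 1.89, 1.66, 1.97 and 1.70 in day 1 replicates 1 to 4. In day 3 replicates 1 to 8 it was 1.45, 0.98, 1.48, 1.62, 1.63, 1.37, 1.74 and 1.42. Only day 3 replicate 7 reached into the day 1 range, and replicate 2 was far below the rest. The group means were 1.81 and 1.46, a difference of -0.35 (95% interval -0.63 to -0.06, exact permutation p = 0.0162, adjusted p = 0.0682), and -0.41 without the deeper libraries (exact permutation p = 0.0333).

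The arthritis-lost genes stood closer to naive on day 3. Their mean was -2.34, -2.46, -2.20 and -2.61 on day 1 and -1.21, -1.20, -2.50, -2.11, -1.48, -1.58, -2.05 and -1.96 on day 3, in the order of the replicate numbers. All but replicate 3 of day 3 lay above the day 1 libraries, and replicate 3 lay inside their range. The difference was 0.64 (95% interval 0.09 to 1.19, exact permutation p = 0.0303, adjusted p = 0.0682), and 0.67 without the deeper libraries (exact permutation p = 0.0667). As a share of the distance between naive and PIA, arthritis-raised genes stood at 93.3% on day 1 and 75.4% on day 3, and arthritis-lost genes at 106.8% and 78.3%.

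The libraries of day 3 did not order alike on both axes. Replicate 1 had one of the smallest losses (-1.21) with a middling rise (1.45), while replicate 3 had the largest loss (-2.50) at nearly the same rise (1.48). The median log2 value over all genes was 6.01 in replicate 1 and 5.63 in replicate 3, and its part in both means was not tested. Across the 8 day 3 libraries Pearson's r between both means was -0.51 (permutation p = 0.200) and Spearman's rho -0.50 (permutation p = 0.216). Without replicates 2 and 7, the libraries farthest from the median, r was -0.09 (permutation p = 0.865), and without the deeper replicate 4 it was -0.46. With adjustment over these 4 values the lowest p was 0.407, and no relation was shown.

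**Figure D4:**
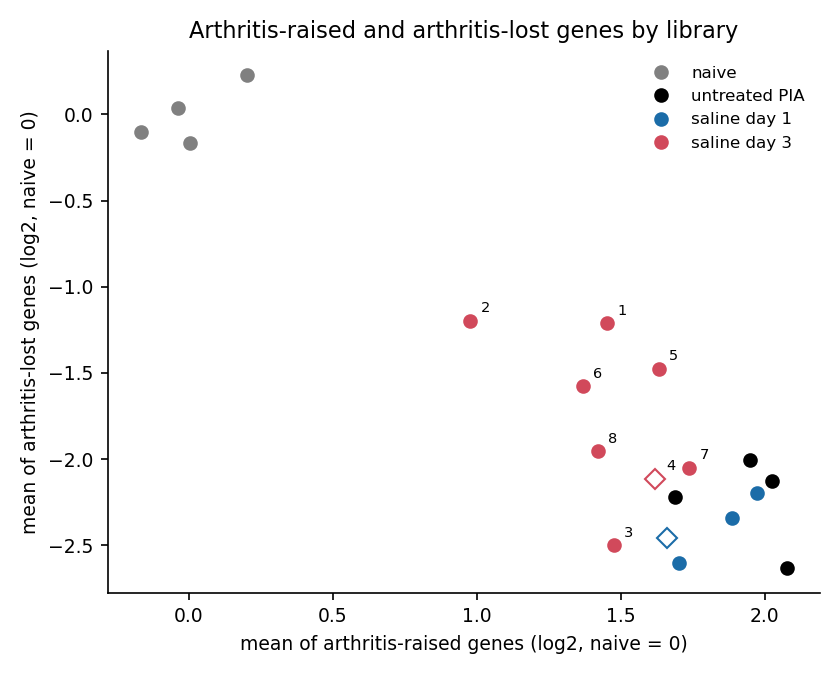
Mean of the arthritis-lost genes (vertical axis) against the mean of the arthritis-raised genes (horizontal axis), both as log2 differences from naive, 1 point per library, with day 3 replicates numbered and the deeper libraries as open diamonds. Day 3 libraries lie between the PIA and day 1 cluster at the lower right and naive at the upper left, with replicates 1 and 2 nearest to naive on the vertical axis and replicate 3 at the level of day 1.

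The differences were spread over most signature genes and were larger where arthritis had changed a gene more. Of the 2035 arthritis-raised genes, 82.6% were lower on day 3, against 49.6% of all genes tested, with a median of -0.33. The median was -0.27 for the 1315 genes raised 2 to 4-fold in PIA, -0.47 for the 639 genes raised 4 to 16-fold and -0.82 for the 81 genes raised over 16-fold. Of the 1184 arthritis-lost genes, 88.2% were higher on day 3, against 50.4% of all genes, with a median of 0.58. The medians were 0.46, 0.76 and 1.30 for the 575, 535 and 74 genes lost 2 to 4-fold, 4 to 16-fold and over 16-fold. Genes differ in number between these classes and are not independent of each other, so these shares describe the libraries and carry no test.

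Few of these genes passed on their own. Those called were 4 of the 2035 arthritis-raised genes, all lower on day 3, and 11 of the 1184 arthritis-lost genes, all higher. Over all genes tested 0.0612% were called lower and 0.115% higher. At an unadjusted p under 0.05, 452 arthritis-raised genes (22.2% of them) were lower and 14 higher, and 362 arthritis-lost genes (30.6%) were higher and 6 lower, where 14.4% of all genes had such a p in either direction. The groups were separate in the direction of naive for 80 arthritis-raised and 30 arthritis-lost genes, and in the other direction for 1 and 0. These are 3.93% of the arthritis-raised genes, where 1.13% of all genes lay wholly below, and 2.53% of the arthritis-lost genes, where 0.612% of all genes lay wholly above. The 81 genes raised and the 74 genes lost over 16-fold, which had the largest medians, included 0 called genes. With 0.176% of all genes called, 0 calls among so few genes say nothing about these classes. In the direction of naive, 28 and 37 of them had an unadjusted p under 0.05. Without the deeper libraries 84.5% of arthritis-raised genes were lower (median -0.40) and 86.1% of arthritis-lost genes higher (median 0.60). With TMM factors, which gave 1383 raised and 1640 lost genes, these were 84.6% (median -0.38) and 86.9% (median 0.52).

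Taken library by library, every day 3 library had more than 54% of the arthritis-raised genes below their day 1 mean. The share was highest in replicate 2 (87.7%), between 66.1% and 78.3% in replicates 1, 3, 4, 6 and 8, and lowest in replicate 5 and replicate 7 (54.3%). Over all genes the share below the day 1 mean ran from 30.0% in replicate 5 to 62.2% in replicate 3. Arthritis-lost genes lay above their day 1 mean for 65.2% to 89.1% in 7 libraries and for 45.1% in replicate 3. Replicate 3 thus lay near day 1 in the arthritis-lost genes under the deposited scaling. Its share of arthritis-raised genes below the day 1 mean (74.3%) stood beside 62.2% of all its genes. The part of such a shift of the whole library was not tested.

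The same interval in rats given RTD-1, which shares no library with the saline comparison, gave no calls. limma called 0 of 13062 genes (0%), with 1579 at an unadjusted p under 0.05 (12.1%). voom, a count-based form of limma, also gave 0. With only day 3 replicates 5 to 8 the count was 177 (4 higher, 173 lower), where the median of all genes was -0.31. They include replicate 6, the shallowest library of the series (464693 reads), whose part in this count was not tested. With only the compared groups in the fit the count was 1 in RTD-1 and 0 in saline. Under the deposited scaling and with all its libraries, the median of all genes in this arm was -0.20. Thus 75.8% of genes were lower on day 3 before any class was considered. With TMM factors this median was -0.02 and with quantile normalization 0.00, whereas the saline median was between -0.00 and 0.01 under all 3. Changes of single gene classes in the RTD-1 arm are therefore given under each scaling.

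Arthritis-raised genes were lower on day 3 in both arms. In RTD-1 libraries the mean differed by -0.40 under the deposited scaling (exact permutation p = 0.0303, adjusted p = 0.0682), by -0.25 with TMM factors (exact permutation p = 0.0141) and by -0.22 with quantile normalization (exact permutation p = 0.0222). The saline values were -0.35, -0.39 and -0.40. The difference between the arms' changes was 0.05, -0.14 and -0.18, with permutation p-values of 0.752, 0.206 and 0.133 over all 900900 relabelings of the arm within days. Under the deposited scaling and without the deeper libraries it was -0.02 (permutation p = 0.919). The direction of this difference thus turned with the scaling, and it did not pass under any of the 3.

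For arthritis-lost genes the gap between the arms was wider under each scaling. Under the deposited scaling, the only one with adjusted p-values, it did not pass after adjustment. Their mean in RTD-1 libraries differed between the days by 0.01 under the deposited scaling (95% interval -0.60 to 0.60, exact permutation p = 0.978), by 0.13 with TMM factors (exact permutation p = 0.446) and by 0.21 with quantile normalization (exact permutation p = 0.0606). The saline values were 0.64, 0.58 and 0.45. The saline change exceeded the RTD-1 change by 0.63 (permutation p = 0.0439, adjusted p = 0.0790 over the 9 tests), 0.44 (permutation p = 0.0420) and 0.24 (permutation p = 0.104). Under the deposited scaling and without the deeper libraries it was 0.66 (permutation p = 0.0556). The size of this difference thus moved more than 2-fold with the scaling. For the whole score the difference between the arms' changes was -0.58 (permutation p = 0.0631, adjusted p = 0.0946), and -0.67 without the deeper libraries (permutation p = 0.0509).

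**Figure D5:**
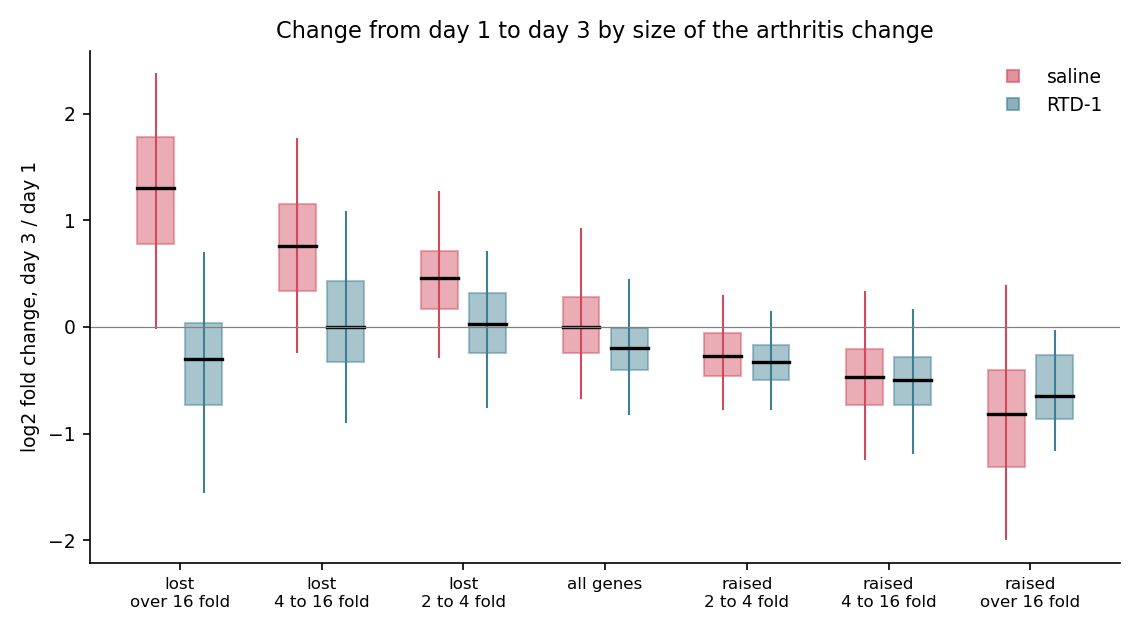
Log2 fold change between day 3 and day 1 (vertical axis, deposited scaling) in saline (red) and RTD-1 (blue-green) for genes grouped by the size of their change in untreated PIA, with the median as a black line, the middle 50% of genes as a box and the range from the 5th to the 95th percentile as a line. In saline the medians run from 1.30 for genes lost over 16-fold to -0.82 for genes raised over 16-fold, and in RTD-1 from -0.30 to -0.64, where the median of all genes is -0.20.

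Gene by gene, the difference between the arms' changes was called for 1 gene of 13062 (0.00766%), with 695 at an unadjusted p under 0.05 (5.32%). This gene, ENSRNOG00000055829, is named after its values were seen. It was at 4.88, 1.59, 2.36 and 0 normalized reads in saline day 1 replicates 1 to 4 and at a mean of 8.28 ± 4.52 (SD, n = 8) on day 3, where naive tissue held 99.2 ± 23.9 (SD, n = 4). In the RTD-1 arm its means were 9.34 ± 6.96 on day 1 (SD, n = 4) and 1.14 ± 1.41 on day 3 (SD, n = 8), with 4 of 8 libraries at 0 reads. The difference of log2 changes was 3.91 (SE 0.723, limma adjusted p = 0.0161), or 3.96 without the deeper libraries, where it no longer passed (limma adjusted p = 0.0525). No saline library of either day held more than 17 reads of it, and neither arm's own change passed the test.

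Among the 23 genes called in saline none differed between the arms after adjustment: the lowest adjusted p was 0.131, and 13 had an unadjusted p under 0.05. The 8 genes that fell in saline had a negative log2 change in RTD-1 libraries too (median -0.61, against -0.20 for all genes). The 15 that rose had a positive one in 9 cases (median 0.11), where 24.0% of all genes were positive. With TMM factors 229 of the 267 genes that rose in saline were positive in RTD-1 libraries (47.2% of all genes), and with quantile normalization 196 of 222 (50.04% of all genes). ENSRNOG00000008622, with 52.8 ± 19.4 normalized reads on day 1 (SD, n = 4) and 44.2 ± 9.74 on day 3 (SD, n = 8) of RTD-1, had a log2 difference of -0.21 there (limma adjusted p = 0.796). ENSRNOG00000010549 held 321.9 ± 85.3 (SD, n = 4) and 177.6 ± 75.1 (SD, n = 8), a log2 difference of -0.95 that did not pass (limma adjusted p = 0.279).

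Further comparisons bracket the interval and share libraries with it, so they are set beside it as values only. Day 1 saline libraries differed from untreated PIA in 0 genes by limma (699 at an unadjusted p under 0.05, 5.35%). Saline day 5 against day 3 also gave 0 calls (962 at an unadjusted p under 0.05, 7.36%), while day 5 against day 1 gave 793 (6.07%), 327 higher (2.50%) and 466 lower (3.57%). The day 5 score was 3.02 ± 0.525 (SD, n = 8), or 72.2% of the PIA mean, beside 77.0% on day 3. Saline day 5 replicate 1, which was also sequenced more deeply, was kept in all day 5 values and calls. Arthritis-raised genes stood at 67.4% and arthritis-lost genes at 76.3% on day 5. Means of the named genes on day 5 (SD, n = 8) were 68.9 ± 32.8 normalized reads for ENSRNOG00000008622, 41.7 ± 8.00 for ENSRNOG00000049177, 94.7 ± 31.9 for ENSRNOG00000010549 and 75.2 ± 24.0 for ENSRNOG00000012946. Each of these 4 lay on the day 3 side of its day 1 mean. The day 5 against day 1 differences had limma adjusted p-values of 0.0347, 0.0143, 0.00260 and 0.0107 in the same order. These genes were chosen for their day 3 against day 1 folds, and the same day 1 libraries enter both comparisons. The p-values therefore lend no separate support.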

How the data were processed

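Total RNA of synovial tissue was made into stranded libraries and read as single 75 nt reads, per the labels' protocols. The submitters' processing notes name HISAT and DESeq. The deposited values are log2 values of reads multiplied by a library's own factor, and a gene without reads is entered as if it had 0.9. Undoing this gave whole reads for 100% of values (relative tolerance 0.001), which were scaled to the median factor of 5.75 megareads and called normalized reads. The row without an identifier (0.000384% to 0.0137% of reads) was left out.

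The 13062 genes that reached 10 normalized reads in 4 or more libraries were tested on log2(normalized reads + 1) with limma 3.58.1 in R 4.3.3, in 1 fit of 10 group means over 58 libraries with trend and robust settings, and called at a Benjamini-Hochberg adjusted p under 0.05. Scores were compared by two-sided exact permutation over all 495 assignments of libraries, with 95% intervals by inverting the test. Arm differences were permuted on arm-centred scores, which can make p too small. The limma contrast, the permutation between days and the TMM factors were run on simulated data. The permutation between arms was not.

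Named genes are the 2 per direction with the largest folds among called genes whose log2 values averaged 5 or more. The libraries compared, the score and the lists were chosen with earlier results of these data known. The rule had more places for genes with symbols, and the planned test assumed normalized counts; both were adapted to the files. Replicate numbers were not taken to pair day 1 with day 3. Any 2 libraries of a group differed by more than sampling noise (chi-square per degree of freedom at least 3.83). Deeper libraries were those among the 12 compared with a factor of at least 10 megareads. Saline day 5 replicate 1 also passed this limit (204 reads of ENSRNOG00000008622 became 76.5 normalized reads). It was not left out with them. TMM and voom used the recovered reads. Depth limits precision most for genes of few reads. Figures were drawn with matplotlib 3.10.9.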

Additional observations from a re-analysis of the deposited data

Results flagged for a closer look

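Over 38 groups of 4 to 10 values, 5 held 1 library far from the rest, where chance flags about 1 in 20. The groups share libraries, and the first component was computed with the deeper libraries in it. The flags are therefore not independent, and no excess over that rate is claimed. Day 1 saline replicate 2 lay at 96.0 on the first principal component, where the next library of its group lay at -0.53, and day 3 saline replicate 4 at 81.7, where the next lay at -2.40. The latter also had 5727282 reads in genes, against 2197717 in the next of its group. The calls and score values without both are given beside those with them. In the RTD-1 arm, the arthritis-raised genes of day 3 replicate 6 had a mean of 0.96, where the next library had 1.55, and this library had the lowest depth of the series, 464693 reads. The part of its depth in that value was not tested. ENSRNOG00000012946 was at 199.6 normalized reads in RTD-1 day 3 replicate 4, where the next library held 128.2.

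The change of ENSRNOG00000055829 from day 1 to day 3 differed between saline and RTD-1 by 3.91 log2 (limma adjusted p = 0.0161), on few reads in every library of both arms.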

How the results depend on the processing

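The count of genes called in saline (23) was 19 (8 higher, 11 lower) with a pseudocount of 8, 13 with no filter on low values, 426 with TMM factors, 344 with quantile normalization, 834 with array weights (435 higher, 399 lower), 0 with only the 2 groups in the fit (1829 at an unadjusted p under 0.05), 53 without the deeper libraries, 543 with TMM factors as well, 0 for replicates 1 to 4 (1481 at an unadjusted p under 0.05), 15 for these without the deeper libraries and 80 for day 3 replicates 5 to 8. With voom it was 12 (3 higher, 9 lower), and 38 (8 higher, 30 lower) without the deeper libraries, the latter added after seeing the data. Leaving out each library gave 0 to 152. In RTD-1 the count (0) was 1 with only the groups compared and 177 (4 higher, 173 lower) for day 3 replicates 5 to 8, where the median of all genes was -0.31. For the arm difference (1) it was 2 with a pseudocount of 0.5 or day 3 replicates 5 to 8, 0 with a pseudocount of 8, quantile normalization, array weights, only the groups compared, voom, replicates 1 to 4 or without the deeper libraries (alone or with TMM factors, voom or replicates 1 to 4), and 0 to 3 with each library left out.

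Correlations of same-numbered day 1 and day 3 libraries were 0.253, -0.297, 0.106 and -0.358. Both negative values involve a deeper library, and the deeper pair correlated at 0.730. These 4 values cannot decide whether the numbers pair libraries. With a replicate block 94 genes were called (86 higher, 8 lower), and paired differences were -1.07 for the score, -0.42 for arthritis-raised genes (exact permutation p = 0.125 for both, the smallest possible) and 0.65 for arthritis-lost genes (p = 0.25, exact). Unpaired, arthritis-lost genes gave 0.65 for replicates 1 to 4 (exact permutation p = 0.143) and 0.67 without the deeper libraries (p = 0.0667, exact), and arthritis-raised genes gave -0.26 for day 3 replicates 5 to 8 (exact permutation p = 0.114). With each library left out the score difference ran from -1.09 to -0.83, that of arthritis-raised genes from -0.40 to -0.28 and that of arthritis-lost genes from 0.56 to 0.75. The 4 genes named by rule kept their direction in all alternatives, which reuse libraries on which these genes were chosen. Of 16 settings apart from single libraries left out, limma adjusted p reached 0.05 or more in 7 for ENSRNOG00000008622 and 8 for ENSRNOG00000049177. For ENSRNOG00000010549 and ENSRNOG00000012946 it did so in 5 and 6. Of the 12 fits without 1 library it did so in 9, 9, 8 and 9, in the same order. The arm difference of arthritis-raised genes turned from 0.05 to -0.14 with TMM factors, -0.18 with quantile normalization and -0.02 without the deeper libraries. List medians were not run, for lack of symbols. The causes were not tested.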

Other observations

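Outside the arthritis signature lay 9843 of the genes tested. Among them 624 genes were higher and 421 lower on the third day (unadjusted p under 0.05), together 10.6%. The share of all genes, 14.4%, includes the arthritis-raised (22.9%) and arthritis-lost genes (31.1%). Of the 9843 genes 4 were called higher and 4 lower, where 0.115% and 0.0612% of all genes were. Genes outside the signature can still differ between PIA and naive tissue by less than 2-fold. Among those called higher, ENSRNOG00000001774, ENSRNOG00000013884 and ENSRNOG00000004520 had been lower in PIA (limma adjusted p = 0.00352, 0.0201 and 0.000254). The 4 called lower were not called between PIA and naive. All 8 day 3 libraries lay above all 4 day 1 libraries for 49 of these genes (0.498%, where 0.612% of all genes did so) and below for 68 (0.691%, where 1.13% did so). Their median change was 0.02, or -0.00 without the deeper libraries. In the RTD-1 arm their median was -0.18, near the median of all genes there (-0.20).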
